A study of Rattus norvegicus with 25 samples.

Results

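The genes described here encode the nuclear subunits of the oxidative phosphorylation system of rat liver mitochondria. They were taken from the array's platform annotation as every gene whose symbol starts with Nduf, Uqcr, Cox4 to Cox8 or Atp5, or is Sdha, Sdhb, Sdhc, Sdhd or Cycs. This gave 43 genes of the 6365 with a single-symbol probe on the array, each with 1 probe. Another 4 matching probes carry several symbols and are not named. By complex there were 15 genes of complex I, 2 of complex II, 3 of complex III, 5 of complex IV and 11 of complex V (ATP synthase). A further 7 were carried by the name rule and are not structural subunits of a complex. These are cytochrome c (Cycs), the assembly factors Ndufaf3, Ndufaf4, Ndufaf7 and Ndufaf8, the supercomplex protein Cox7a2l, and Ndufa4l2, a relative of Ndufa4 that hypoxia induces.

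Complexes I to IV pass electrons from NADH and succinate to oxygen and, except for complex II, pump protons across the inner mitochondrial membrane. Complex V lets the protons back through a ring of c subunits and makes ATP. Most subunits are encoded in the nucleus, and their transcripts are abundant in hepatocytes, which run the urea cycle and gluconeogenesis on mitochondrial ATP. Nuclear respiratory factors, estrogen-related receptors and their coactivator PGC-1 alpha are known regulators of many of these genes.

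The study asked how dietary pyrroloquinoline quinone (PQQ), a redox cofactor found in foods, affects the rat liver. Livers came from male Sprague-Dawley rats on 25 CodeLink arrays, with RNA isolated rat by rat per the labels. Their dams were mated at 10 weeks of age and, for the last 10 days of gestation, ate a purified basal diet without PQQ (deficient group, 6 arrays) or with it (supplemented group, 6 arrays). The pups stayed on the diet of their dams. At 6.5 weeks some deficient rats received intraperitoneal PQQ over 36 h (repletion group, 4 arrays), a dose of 1.5 mg per kg of body weight at intervals of 12 h, and some supplemented rats were moved to the deficient diet for 48 h (depletion group, 3 arrays). The reference rats ate standard laboratory chow (6 arrays), a diet that differs from the purified one in more than PQQ, and the labels used here give neither their age nor a group injected without PQQ. Litters are not given, so p-values measure the spread between these rats and arrays. In whole liver, fewer cells of a type and less RNA per cell cannot be told apart.

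The arrays fell into 5 sets by the defective spots they share, where the overlap of their lists was 0.646 to 0.956 within a set and at most 0.327 between sets. Chow 1 to 3 and supplemented 1 formed set 1, supplemented 2 and 3 set 2, supplemented 4 to 6 and deficient 1 to 5 set 3, deficient 6 and depletion 1 to 3 set 4, and chow 4 to 6 and repletion 1 to 4 set 5. All repletion arrays were therefore in a set that holds no deficient and no supplemented array. The chow group alone spans sets 1 and 5, so chow 4 to 6 minus chow 1 to 3 shows how the same diet read in both. Median intensity per array was 103 to 281 units, lowest on chow 6 and deficient 6. Chow 1 and 2 were nearly identical, and so were supplemented 5 and 6. Whether such a pair is 1 rat or 2 is not given in the labels, so the mean of either pair stands for 1 sample. The chow and supplemented groups then have 5 samples apiece, of 23 in all.

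Of 8 listed hepatocyte markers 3 were on the array. Alb and Apoa1 had mean levels of 15.41 and 15.29, and Hnf4a had 8.4 and was above background on 24 of 25 arrays. Levels are log2 normalised intensities, which depend on the probe as well as on the transcript and are compared only within a probe. Of the 43 genes, 40 were above the background controls on every array that measured them. Cox6a2 and Cox8b, the heart and muscle forms of complex IV subunits, were above background on 1 of 25 and 0 of 17 arrays, with mean levels of 5.88 for both probes. The 4 striated muscle markers on the array had sample means of 6.08 to 6.42. Tnnt2 and Mb were above background on 0 arrays, Acta1 on 22 and Ckm on 25, and none of the 4 passed the filter on dim probes. The filter on dim probes passed 37 of the 43 genes, namely 14 of complex I, 2 of complex II, 2 of complex III, 3 of complex IV, 11 of complex V and 5 of the remaining 7. Ndufa9, Uqcrb, Cox6a2, Cox8b, Ndufa4l2 and Ndufaf4 did not pass, with mean levels of 5.88 to 7.27, and no comparison is given for them.

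Promoter sequence is shown for 4 genes that the results return to. They are the strongest riser, a pair of genes for the same c subunit that differed in behaviour, and a peripheral stalk subunit. Each is the 150 bases before the transcription start from RefSeq on build GRCr8, written 5′ to 3′ on the gene's strand, with matches to the searched motifs in capitals. Cox4i1, subunit 4 of cytochrome c oxidase, lies at chr19:65630233-65630382 on the plus strand. Atp5mc2 at chr7:135678219-135678368 on the minus strand and Atp5mc3 at chr3:79220665-79220814 on the minus strand encode the same mature c subunit. Atp5po at chr11:44657484-44657633 on the minus strand encodes the oligomycin sensitivity-conferring protein of the peripheral stalk.
Cox4i1: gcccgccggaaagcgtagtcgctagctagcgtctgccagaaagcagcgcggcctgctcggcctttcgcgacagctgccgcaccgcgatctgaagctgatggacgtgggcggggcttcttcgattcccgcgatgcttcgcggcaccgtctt
Atp5mc2: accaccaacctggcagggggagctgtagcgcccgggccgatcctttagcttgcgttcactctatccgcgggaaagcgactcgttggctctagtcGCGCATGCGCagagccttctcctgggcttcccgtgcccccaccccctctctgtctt
Atp5po: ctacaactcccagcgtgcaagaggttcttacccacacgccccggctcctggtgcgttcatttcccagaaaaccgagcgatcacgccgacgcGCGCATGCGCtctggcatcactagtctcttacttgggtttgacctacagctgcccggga
Atp5mc3: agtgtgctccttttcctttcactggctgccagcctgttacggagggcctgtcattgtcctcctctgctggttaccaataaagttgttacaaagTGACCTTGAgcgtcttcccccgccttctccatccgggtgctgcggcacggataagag
The capitals in Atp5mc2 and Atp5po are overlapping matches to the NRF1 motif GCGCATGC and its reverse complement. Those in Atp5mc3 are the reverse complement of the estrogen-related receptor motif TCAAGGTCA. In the full windows of 250 bases before to 50 after the start, searched on both strands, 39 of the 43 genes could be read. The NRF1 motif was present in 5 of them (12.8%), against 2.66% of 27457 windows of all genes. The YY1 motif AAGATGGCG was also in 5 (12.8%, against 1.93%), the ETS motif CCGGAAGT in 3 (7.69%, against 4.01%) and the estrogen-related receptor motif in 2 (5.13%, against 0.412%). Atp5mc2, Atp5po, Cycs, Ndufaf4 and Sdhb held the NRF1 motif. Cox4i1, Uqcrc2 and Atp5mc1, a further gene for the same c subunit, held none of these letters in their windows.

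No gene of this system passed the test between the lifelong diets. Between deficient and supplemented rats, 0 of the 37 genes rose and 0 fell in limma's test with Benjamini-Hochberg adjustment over all 5146 probes, at an adjusted p under 0.05, where 3.54% of all probes were called (1.92% higher and 1.61% lower). At an unadjusted p under 0.05 there was 1. The share of all probes at that unadjusted threshold is not given, here or below, so such counts have no background beside them. The median difference over the 37 genes was -0.02 on the log2 scale, against 0.01 over all probes. Within array set 3, which holds both diets, again 0 genes were called and 0 had an unadjusted p under 0.05, beside 0.254% of all probes called, and the median was 0.07. There Cox4i1 differed by -0.10 (SE 0.19, 95% interval -0.47 to 0.28) and Atp5mc2 by -0.13 (SE 0.19, 95% interval -0.50 to 0.24). Atp5f1b, the catalytic beta subunit, had a far wider interval, -1.80 to 0.25, with more scatter between its samples.

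Short-term depletion was compared with continued supplementation, but all depletion samples were on array set 4 and no supplemented sample was, so diet and array set cannot be told apart. In depletion minus supplemented, 0 of 37 genes rose and 0 fell in limma's test, where 0.293% of all probes were called (0.0975% higher and 0.195% lower), and 2 genes had an unadjusted p under 0.05. The median difference was 0.14, against 0.01 over all probes. With the array set as a fixed term, 15 genes rose, beside 28.3% of all probes called, which rests on deficient 6, the single deficient sample of set 4. Ndufaf3 was 10.3 to 10.61 in the 3 depleted samples and 9.98 to 10.21 in the 5 supplemented ones. These ranges do not overlap, and the difference of 0.39 (SE 0.16) had an adjusted p of 0.228 by limma. Ndufa12 (12.16 to 12.41 against 11.29 to 12.06) and Ndufb9 (13.32 to 13.39 against 13.03 to 13.23) did not overlap either. The share of all probes without overlap is not given, so these separations have no background beside them.

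Repletion minus deficient sets deficient rats injected with PQQ against deficient rats. All repletion samples were on array set 5 and no deficient sample was, so injections and array set cannot be told apart. Of 37 genes, 12 rose and 1 fell, beside 15.7% of all probes called higher and 21.2% called lower, 36.8% in all. The 13 called genes are 35.1% of the 37, which is close to that background. The genes leaned upward where the array did not: 31 of 37 differences were positive, with a median of 0.37 and a range of -0.68 to 1.18, while 47.5% of all probes were positive, with a median of -0.03. The lean was not particular to this comparison. In depletion minus supplemented 31 were also positive, beside 52.6% of all probes. Repletion minus chow, repletion minus supplemented, chow minus deficient and chow minus supplemented had 29 each, beside 46% to 50.8%. Deficient minus supplemented had 16, beside 51.8%. By complex, complex V had 5 risen of 11 (median 0.74), complex IV 2 of 3 (0.73), complex I 3 of 14 (0.29) and complex II 1 of 2. Complex III had 1 fallen of 2. Without deficient 6, a sample described further on, the medians were 0.41 for complex V, 0.54 for complex IV and 0.24 for complex I, with 5, 2 and 6 risen.

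Cox4i1 rose most among the called genes. Its levels in the repletion samples 1 to 4 were 13.05, 12.64, 12.89 and 12.63. In deficient samples 1 to 6 they were 11.2, 11.42, 11.26, 11.9, 11.76 and 12.22. The groups do not overlap, and the difference was 1.18 (SE 0.23, adjusted p = 0.000467 by limma), or 2.26-fold. The chow samples were split, with 12.18 for the mean of chow 1 and 2, 11.77 for chow 3 and 12.92, 12.73 and 12.98 for chow 4 to 6. Chow 4 to 6 thus lay in the range of repletion and chow 1 to 3 in that of the other purified-diet groups, whose supplemented samples ran from 11.58 to 12.23 and depletion samples from 11.75 to 12.14.

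**Figure D1:**
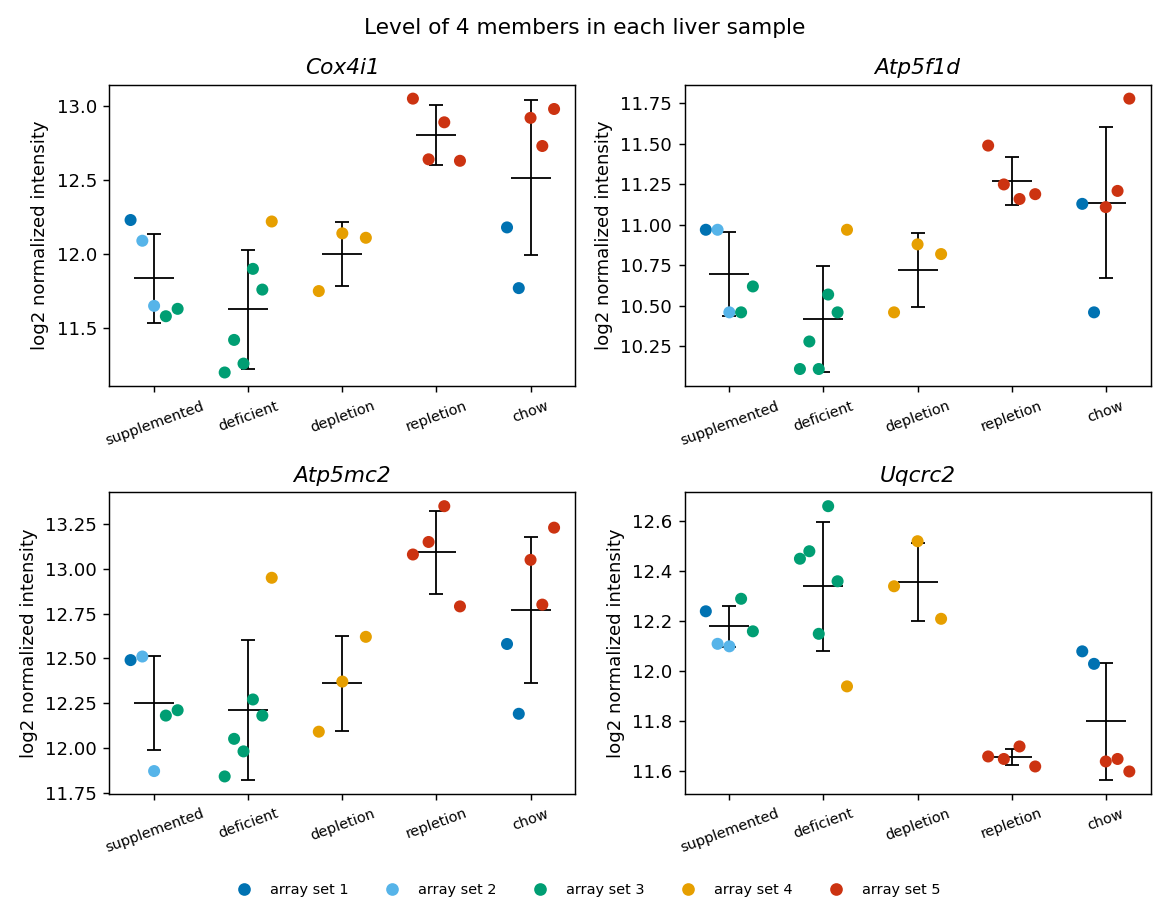
Log2 normalised intensity (vertical axis) of selected oxidative phosphorylation genes in every sample, grouped by diet along the horizontal axis, with colour for the array set. Cox4i1 was 12.63 to 13.05 in repletion and 12.73 to 12.98 in chow 4 to 6, the samples of array set 5, while Uqcrc2 was 11.62 to 11.7 in repletion and 11.6 to 11.65 in chow 4 to 6.

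Uqcrc2, a core subunit of complex III, was the 1 gene that fell. Repletion samples 1 to 4 had 11.66, 11.65, 11.7 and 11.62, and deficient samples 1 to 6 had 12.45, 12.48, 12.15, 12.66, 12.36 and 11.94. The lowest deficient sample was above the highest repletion sample, and the difference was -0.68 (SE 0.13, adjusted p = 0.000321 by limma). In chow it was 12.08 and 12.03 on set 1 and 11.64, 11.65 and 11.6 on set 5. Uqcrh, the hinge subunit of the same complex, differed by 0.93 (SE 0.58) with an adjusted p of 0.209, and by 0.25 (SE 0.27) without deficient 6.

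In complex V the risen genes were Atp5mf, Atp5mc1, Atp5mc2, Atp5f1d and Atp5po, which encode subunits of the membrane part, the central stalk and the peripheral stalk. Atp5mc2 was 13.08, 13.15, 13.35 and 12.79 in repletion samples 1 to 4. In deficient samples 1 to 6 it was 11.84, 12.05, 11.98, 12.27, 12.18 and 12.95, so only deficient 6 entered the range of repletion. The difference was 0.88 (SE 0.21, adjusted p = 0.00228 by limma). Atp5mc1, which encodes the same mature protein, was 12.98 to 13.25 in repletion and 10.96 to 12.62 in deficient samples, without overlap, a difference of 0.97 (SE 0.24, adjusted p = 0.00373 by limma). The third c subunit gene, Atp5mc3, was 14.37 to 14.63 in repletion and 14.35 to 14.63 in deficient samples. Those ranges are nearly the same, and its difference was 0.01 (SE 0.09).

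Atp5f1d, the delta subunit of the central stalk, was 11.49, 11.25, 11.16 and 11.19 in repletion samples 1 to 4 and 10.11, 10.28, 10.11, 10.57, 10.46 and 10.97 in deficient samples 1 to 6. The groups do not overlap, and the difference was 0.85 (SE 0.20, adjusted p = 0.00207 by limma). Atp5mf, a membrane subunit, differed by 1.10 (SE 0.32, adjusted p = 0.01 by limma), with deficient 6 at 9.01 and the other deficient samples between 11.04 and 11.24. Atp5po differed by 0.44 (SE 0.13). The alpha and beta subunits of the catalytic head did not pass. Atp5f1a (alpha) differed by 0.18 (SE 0.41), and by -0.27 (SE 0.23) without deficient 6. Atp5f1b differed by 0.74 (SE 0.43).

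In complex IV, Cox7b differed by 0.73 (SE 0.19, adjusted p = 0.00424 by limma), and by 0.54 (SE 0.12) without deficient 6. Cox5a, which did not pass, differed by 0.31. In complex II the membrane anchor Sdhd was 11.65 to 12.23 in repletion and 10.87 to 11.79 in deficient samples, overlapping at 1 sample of each, and differed by 0.62 (SE 0.15). The iron-sulfur subunit Sdhb differed by -0.14 (SE 0.10, adjusted p = 0.301 by limma). In complex I the accessory subunits Ndufa3, Ndufb2 and Ndufb9 rose by 0.59, 0.54 and 0.45. The core subunits Ndufs7 and Ndufv2 did not pass, at 0.26 (SE 0.13) and 0.70 (SE 0.37). Without deficient 6 Ndufv2 was 0.26 (SE 0.18). Ndufaf8, an assembly factor of complex I, rose by 0.68 (SE 0.15), and cytochrome c differed by 0.12 (SE 0.11).

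**Figure D2:**
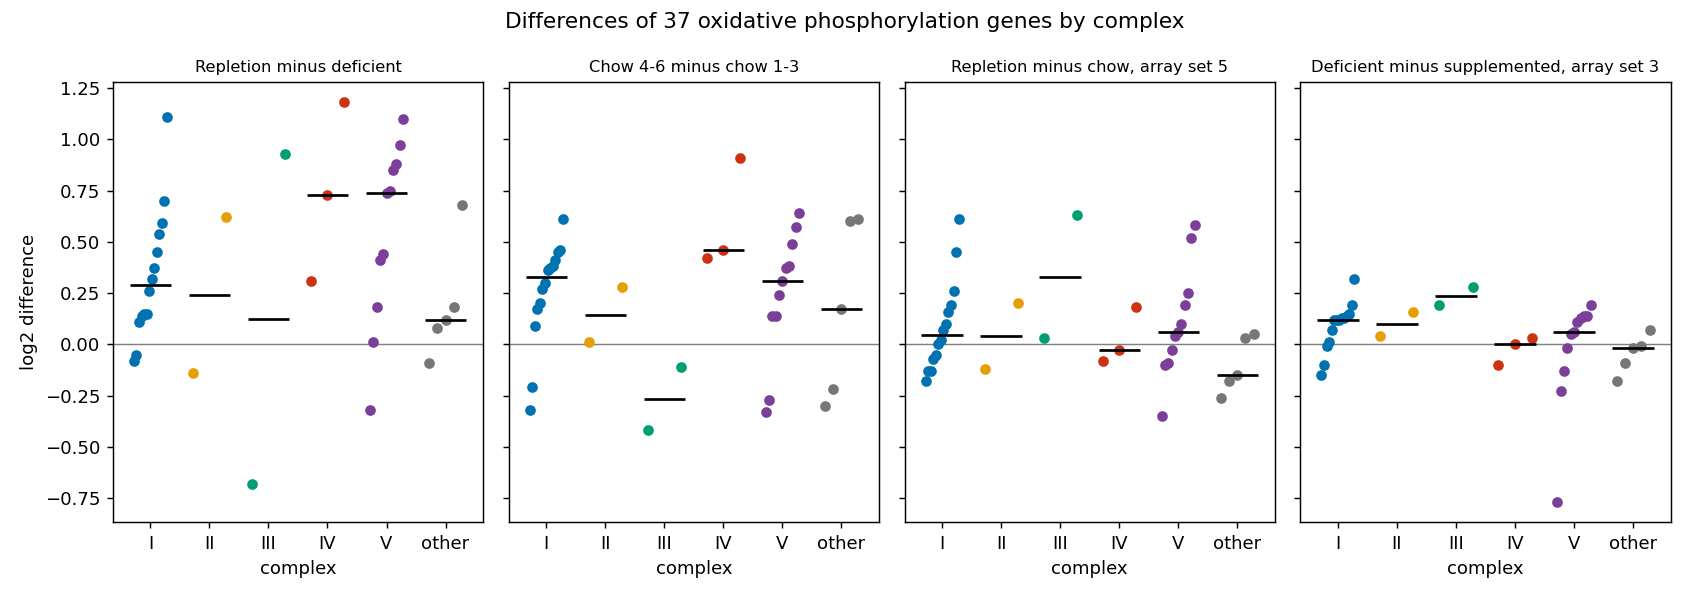
Log2 difference (vertical axis) of each of the 37 tested genes by complex (horizontal axis), with a bar at the median, in repletion minus deficient, chow 4 to 6 minus chow 1 to 3, repletion minus chow within array set 5 and deficient minus supplemented within array set 3. The complex V median was 0.74 in the first panel (0.41 without deficient 6, not drawn) and 0.31 in the second. Over all 37 genes the medians of the other panels were 0.03 and 0.07.

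The chow arrays of set 5 and set 1, from rats on the same diet, differed in the same direction. In chow 4 to 6 minus chow 1 to 3, 2 of 37 genes rose and 0 fell. Of all probes, 3.3% were called (1.81% higher and 1.49% lower). At an unadjusted p under 0.05 there were 16 genes, without a share of all probes to set beside them. The called genes were the complex I assembly factors Ndufaf3 (0.60, SE 0.15) and Ndufaf8 (0.61, SE 0.17), the latter called in repletion minus deficient as well. When 1 chow sample at a time was left out, Ndufaf3 passed in 2 of 5 fits and Ndufaf8 in 0 of 5. The median of the 37 was 0.30, against -0.03 over all probes, and 29 differences were positive. By complex the medians were 0.33 for complex I, 0.46 for complex IV, 0.31 for complex V and -0.27 for complex III. Cox4i1 differed by 0.91 (SE 0.26, adjusted p = 0.0597 by limma), Atp5mc2 by 0.64 (SE 0.26), Atp5f1d by 0.57 (SE 0.26) and Uqcrc2 by -0.42 (SE 0.15, adjusted p = 0.134 by limma). Atp5mc3, which was level after repletion, differed here by 0.14.

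Repletion minus deficient and chow 4 to 6 minus chow 1 to 3 have no sample in common, but both have array set 5 on the plus side. Across the 37 genes their differences had a Pearson r of 0.515 and a Spearman rho of 0.509, and 29 had the same sign. Over 5054 probes of the whole array r was 0.615, and 3681 had the same sign. For repletion minus supplemented, which also has set 5 on the plus side, r against the chow difference was 0.721 over the 37 genes and 0.656 over the array. Genes are not independent replicates, so these are descriptions only.

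**Figure D3:**
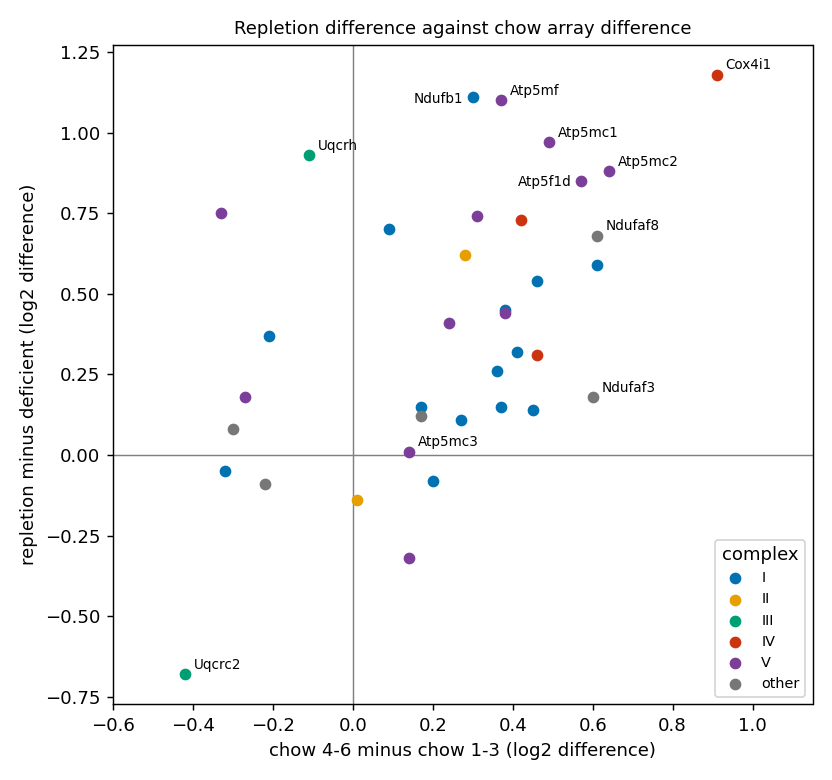
Log2 difference in repletion minus deficient (vertical axis) against chow 4 to 6 minus chow 1 to 3 (horizontal axis) for the 37 tested genes, with colour for the complex. Cox4i1 is at 1.18 and 0.91 and Uqcrc2 at -0.68 and -0.42. In the quadrants of equal sign lie 29 of the 37 genes, beside 3681 of 5054 probes of the whole array (not drawn).

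Within array set 5, where repletion and chow 4 to 6 can be set side by side in the same array set, 0 of 37 genes were called by limma and 2 had an unadjusted p under 0.05, beside 2.14% of all probes called. The median difference was 0.03, with a range of -0.35 to 0.63. Cox4i1 differed by -0.08 (SE 0.17, 95% interval -0.42 to 0.26), Atp5f1d by -0.10 (SE 0.19), Atp5mc2 by 0.06 (SE 0.17) and Uqcrc2 by 0.03 (SE 0.10, 95% interval -0.18 to 0.23). Against all 5 chow samples, 0 genes were called as well and 2 had an unadjusted p under 0.05, beside 1.54% of all probes (0.662% higher and 0.877% lower). No deficient sample was run in set 5, so a within-set value of repletion minus deficient does not exist. With the array set as a fixed block in the fit, 1 of 37 genes passed in repletion minus deficient, beside 1.54% of all probes, and the median was 0.06. Cox4i1 was then -0.24 (SE 0.38), Atp5f1d -0.04 (SE 0.41) and Uqcrc2 -0.35 (SE 0.23). All of these block values link the groups through supplemented 1, the 1 purified-diet sample of set 1, and cannot be estimated without it. The gene that passed was Atp5pd, the d subunit of the peripheral stalk, at 2.93. In supplemented 1 it was 11.18 where the other supplemented samples had 14.11 to 14.29, and Cox4i1 was 12.23 there, the highest supplemented value. The part of the array set in the difference between repletion and deficient livers cannot be told apart from that of the injections.

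Other comparisons also have set 5 on one side. In repletion minus supplemented, 10 of 37 rose and 1 fell, beside 19.7% of all probes (9.01% higher and 10.7% lower). Cox4i1 differed by 0.97 (SE 0.24), Atp5mc2 by 0.84 (SE 0.21), Ndufaf8 by 0.66 (SE 0.15) and Uqcrc2 by -0.52 (SE 0.13). In chow minus deficient, 5 rose and 1 fell, beside 27.9% of all probes (11.9% higher and 15.9% lower). The risen genes were Cox4i1 (0.89), Atp5f1d (0.72), Atp5mc2 (0.56), Ndufaf8 (0.40) and Ndufaf7 (0.38), and Uqcrc2 fell (-0.54). When 1 sample at a time was left out, Cox4i1, Atp5f1d and Uqcrc2 passed in 11 of 11 fits, Ndufaf7 in 7, and Atp5mc2 and Ndufaf8 in 4 each. These comparisons share samples with those above and are not separate evidence. In chow minus supplemented, 0 of 37 rose or fell, beside 9.79% of all probes (5.09% higher and 4.7% lower), with 9 at an unadjusted p under 0.05. Without chow 3, 7 passed there, and the share of all probes called in that fit is not given, so this count has no background beside it. In fits that carry the array set, called genes numbered 1 in repletion minus supplemented (1.61% of all probes), 1 in chow minus deficient (2.33%), 2 in chow minus supplemented (2.75%, and 2.33% within set 1) and 15 in depletion minus supplemented (28.3%). In the first 3 comparisons Atp5pd was among them, and in the third also Ndufa12 (0.66), which was 11.29 in supplemented 1 and 11.92 to 12.06 in the other supplemented samples. These calls rest on supplemented 1, a lone sample in set 1 that the fit assumes to vary like the other groups. The depletion count rests on deficient 6.

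Over the group as a whole, sample medians were compared. The median deviation of the 37 genes from their mean over all samples was 0.14 to 0.29 in repletion and 0.11 to 0.27 in chow 4 to 6. It was -0.12 to 0 in chow 1 to 3, -0.18 to 0.01 in supplemented, -0.13 to 0.03 in deficient and -0.06 to 0.15 in depletion samples. Every repletion sample was thus above every deficient and supplemented sample, while repletion overlapped with chow 4 to 6 and, at depletion 3 (0.15), with depletion.

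**Figure D4:**
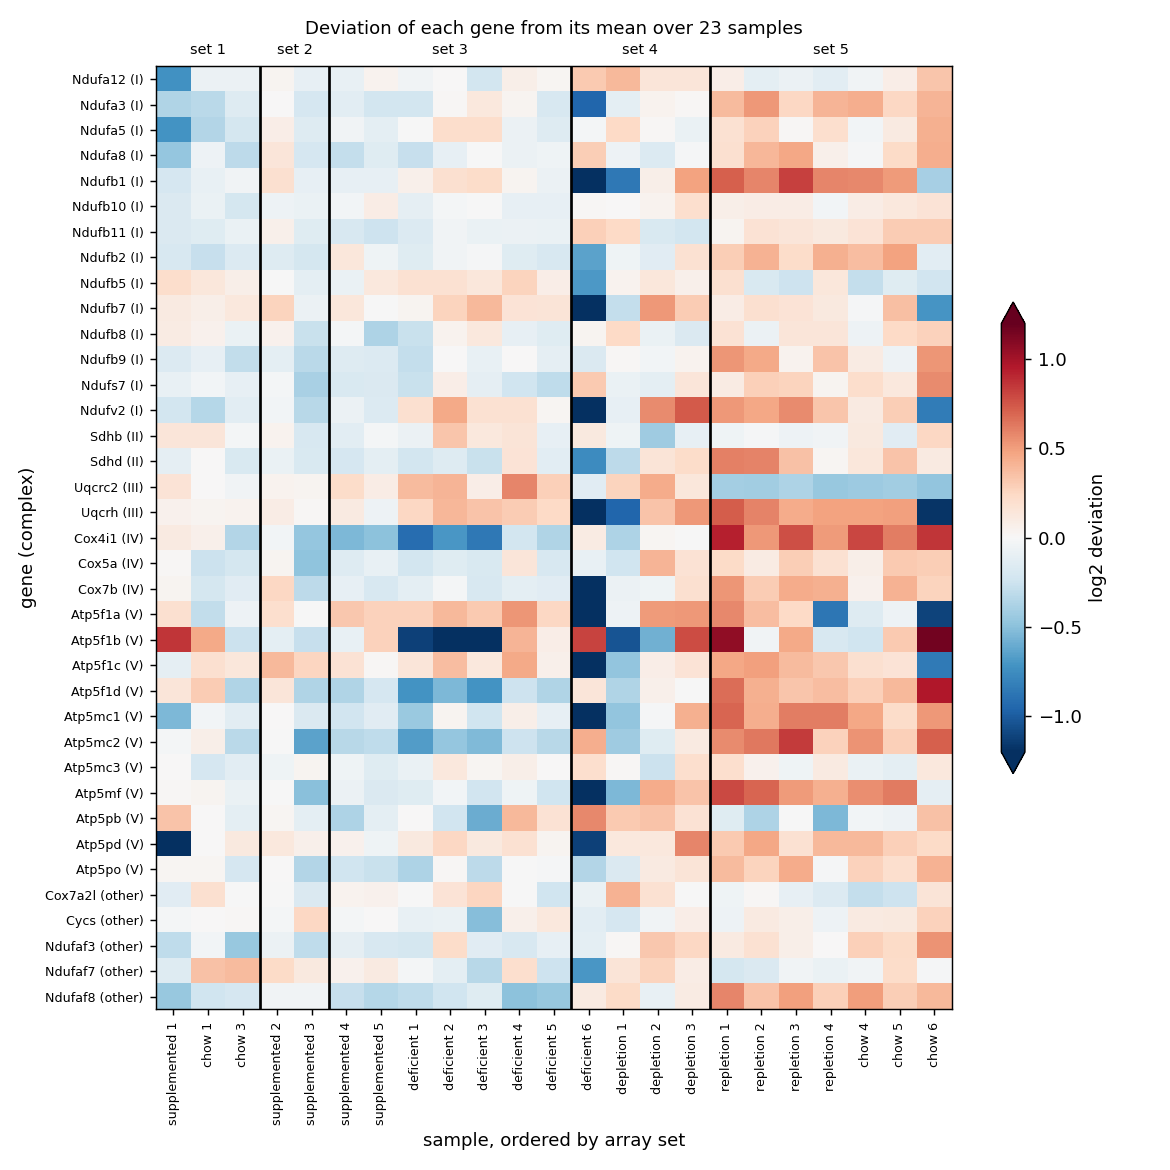
Deviation of each tested gene (rows, by complex) from its mean over all samples, in log2 units by colour, for each sample (columns, by array set). The columns of repletion and chow 4 to 6 have medians of 0.11 to 0.29, and deficient 6 shows a block of strongly negative genes such as Uqcrh, at 9.01.

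One sample stood apart. In deficient 6, 10 of the 37 genes lay more than 1 log2 unit below the lowest other deficient sample (27%), beside 11.5% of the tested probes, and 0 lay as far above the highest. This count was chosen after the values were seen and was not tested. Uqcrh was 9.01 there and at least 13.01 in the other deficient samples, the widest gap. Atp5f1c, the gamma subunit, was 9.99 against at least 13.21, and Atp5f1a, the alpha subunit, 11.04 against at least 13.67. Ndufb1 was 8.51 against at least 11.49. Chow 6 was below every other chow sample in 7 of the same 10 genes, with Uqcrh at 11.59 against at least 12.80. The same held for 83.9% of all probes with such a gap in deficient 6 and 24.5% of all tested probes. Depletion 1 was below both other depletion samples in 10, although for Atp5pd by less than the rounding. No share over all probes is given for depletion 1, so that count has no background beside it.

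Other genes moved up in the same liver. Atp5f1b was 11.78 in deficient 6 and 12.12 in chow 6, the highest values of their groups, and Atp5mc2 and Cox4i1 were the highest deficient values too. Across the 37 genes, the deviations of deficient 6 and chow 6 from the rest of their groups had r = 0.914 (Spearman rho 0.781). No value over all probes is given for this relation, so it is not shown to be particular to these genes. These were the dimmest arrays, with median intensities of 120.35 and 103.23, and in the authors' value table their medians were 0.9209 and 0.97165 against 0.71655 to 0.75645 on the others. What part array brightness or RNA quality had in this pattern was not tested. Without deficient 6, 15 genes rose and 1 fell in repletion minus deficient and the median was 0.25. Differences larger in size were then those of Cox4i1 (1.29), Atp5mc2 (1.02), Atp5f1d (0.96), Ndufaf8 (0.75) and Uqcrc2 (-0.76). Smaller were those of Atp5mf (0.75), Atp5mc1 (0.73), Cox7b (0.54), Sdhd (0.52), Ndufb2 (0.45), Ndufa3 (0.44), Ndufb9 (0.44) and Atp5po (0.41). Ndufb1 (0.59), Ndufa8 and Ndufs7 passed in addition. All probes called were 41.9% in that fit.

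Related genes outside the name rule are given as lists, beside the 36.8% of all probes called after repletion. Of 21 listed assembly factors, 9 were on the array and 7 tested, of which 1 rose after repletion, the copper chaperone Cox17 (0.36), and 1 fell, the insertase Oxa1l (-0.67). Of 17 carriers and coupled enzymes, 11 were tested, 1 rose (Hccs, which attaches heme to cytochrome c, 0.49) and 1 fell (the uncoupling protein Ucp2, -0.54). Markers of Kupffer cells, the macrophages of the liver, moved in the same comparison. Of 9 listed, 5 were tested and 3 rose, beside 15.7% of all probes called higher, namely Cd14 (0.51), Lyz2 (1.03) and C1qa (0.58). C1qb differed by -0.28 (adjusted p = 0.0758 by limma) and Aif1 by 0.09. Their mean level per sample was 10.06 to 10.42 in deficient and 10.42 to 10.72 in repletion samples. All 5 were above background on all 25 arrays. Of 2 endothelial markers tested, Flt1 fell (-0.73) and Pecam1 differed by -0.10, and of 2 stellate cell markers Col1a1 rose (0.75) and Dcn differed by -0.40. None of the 3 hepatocyte markers tested passed. The part of these cell types in the result was not tested.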

How the data were processed

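Total RNA of single livers was amplified to biotin-labelled cRNA and hybridised to CodeLink rat arrays, per the labels' protocols. The authors deposited spot intensity and local background for each array, and a processed value table whose unit is not given in the sources used here. Aligner and build do not apply to these arrays. The intensity of 9911 gene probes was background-corrected with normexp (offset 50) in limma 3.58.1 (R 4.3.3), defective spots were set missing, and arrays were quantile normalised on the log2 scale. A probe was tested where it was brighter than the median of its array in 50% or more of either group's samples. One linear model over all samples was fitted with lmFit and eBayes, 2-sided, and p-values were adjusted over all probes of a comparison at 0.05. Probe symbols came from the platform annotation. Replicate numbers did not pair samples: over 36 same-numbered pairs the median correlation of deviations was -0.0374, and 8 exceeded 0.1.

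Near-identical arrays were found among 29 pairs of the same group and array set. The first rule required a spread of log2 ratios under 0.15 and a ratio of spreads (variable over steady probes) under 1.25. It found 1 pair, chow 1 and 2 (spread 0.108, ratio 1.05), which leaves 24 samples. After that result was seen, the ratio limit was dropped, which added supplemented 5 and 6 (spread 0.109, ratio 1.42) and leaves 23 samples. The next pair had a spread of 0.201. Both versions, and all 25 arrays, were run.

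The members and lists were chosen with earlier results of these data known. Genes given with values per sample are the markers Cox4i1, Atp5f1d, Atp5mc2 and Uqcrc2, up to 3 called genes per complex in repletion minus deficient, up to 5 risen and 5 fallen in the other comparisons, and tissue isoforms. Every member may be named, and genes outside these were chosen after their values were seen. On simulated data for repletion minus deficient over 5172 probes, 41% of changes of 0.5 and 84% of changes of 1 log2 unit were recovered, and 5.3% of calls were false. These shares do not measure the part of the array set, which cannot be told apart from the injections in that comparison. Precision is limited by how many arrays there are.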

Additional observations from a re-analysis of the deposited data

Results flagged for a closer look

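Of 70 sets of 4 to 10 values of a named gene in a group, 8 had 1 sample far from the rest by Dixon's criterion, which marks about 1 set in 20 by chance. In deficient 6 this held for 5 genes. There Atp5mf was 9.01 (next 11.04), Atp5mc1 10.96 (next 12.10), Cox7b 11.92 (next 12.97), Ndufa3 12.1 (next 12.83) and Ndufb2 7.75 (next 8.20). Ndufaf3 in deficient 2 was 10.5 (next 10.19). Ndufb9 in supplemented 3 was 13.03 (next 13.19). The muscle form Cox6a2, otherwise not above background, was 6.69 in the averaged chow 1 and 2 sample (next 5.83). These differences were not tested.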

How the results depend on the processing

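With the array set as a fixed term (block), called genes numbered 1 in repletion minus deficient (median 0.06), 1 in repletion minus supplemented (0.08), 1 in chow minus deficient (-0.01), 2 in chow minus supplemented (-0.02, the same within set 1) and 15 in depletion minus supplemented (0.28, resting on deficient 6), and the repletion minus chow median was 0.03, the same within set 5. As a random block the counts were 0, 0, 0 and 1 in the first 4, and the depletion median was 0.28. Under the fixed block Cox4i1 turned to -0.24, Cox7b to -0.06, Atp5f1d to -0.04 and Atp5po to -0.25 in repletion minus deficient, Cox4i1 to -0.16 in chow minus deficient, and Cox4i1 to -0.34, Atp5mc2 to -0.04 and Atp5po to -0.14 in repletion minus supplemented.

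Averaging only chow 1 and 2 (24 samples), an alternative chosen after seeing the data, gave 14 called genes in repletion minus deficient, 13 in repletion minus supplemented, 6 in chow minus deficient and 2 in chow minus supplemented, where averaging both pairs gave 13, 11, 6 and 0. With 25 separate arrays chow minus supplemented had 2 and chow 4 to 6 minus chow 1 to 3 had 5. Median scaling gave 3 in depletion minus supplemented (median 0.40), 1 in chow minus supplemented and 0 in chow 4 to 6 minus chow 1 to 3, which had 1 with background-subtracted intensity and 1 with the authors' value table. Without chow 6 and deficient 6, also chosen after seeing the data, the medians of repletion minus deficient and chow minus deficient were 0.25 and 0.10, repletion minus supplemented had 18 called and repletion minus chow 1. The replicate block gave 17 called in repletion minus deficient (median 0.34), 14 in repletion minus supplemented and 8 in chow minus deficient, and changed no other count. The causes were not tested.

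Leaving out 1 sample at a time gave 13 to 16 called in repletion minus deficient (median 0.25 to 0.47), 6 to 11 in repletion minus supplemented (0.30 to 0.38), 3 to 8 in chow minus deficient (0.15 to 0.27), 0 to 7 in chow minus supplemented (0.14 to 0.24) and 0 to 1 in chow 4 to 6 minus chow 1 to 3 (0.24 to 0.34). It gave 0 in deficient minus supplemented (-0.06 to 0.08), depletion minus supplemented (0.08 to 0.19) and repletion minus chow (0.11 to 0.22). Averaging probes of a gene was not run, since each gene has 1 probe. Shares of all probes called are not given in this section, so its counts of called genes have no background beside them.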
